A study of Rattus norvegicus with 24 samples.

Results

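Il1a and Il1b encode interleukin 1 alpha and interleukin 1 beta, the founding cytokines of the interleukin 1 family. They were followed as 2 genes of the 12860 tested, out of 32754 listed in the count files (Il1a as ENSRNOG00000004575 and Il1b as ENSRNOG00000004649). They were chosen by name. RNA was sequenced from CD11b/c-selected cells of the brains of Sprague-Dawley rat pups at postnatal day 9, without cerebellum and olfactory bulbs and labelled whole brain microglia, with 3 samples in each of 8 groups. The groups cross sex with oxygen and with an intraperitoneal injection. The normoxia (Nx) pups breathed room air with 21% O2, and the intermittent hypoxia (IH) pups breathed 2 min cycles of 10.5% and 21% O2, for 8 h a day over 8 days from postnatal day 1 and with their dams. Vehicle or lipopolysaccharide (LPS, a component of the bacterial cell wall) was injected 16 h after the last exposure, and the brains were taken 3 h later. For LPS the methods state 0.1 mg/kg and the sample labels 0.1 mg/mL, and for vehicle they state HBSS and saline. No allele was altered in any group, and the sources used here do not say how many pups went into a sample.

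Both cytokines act on the same receptor, the type 1 interleukin 1 receptor, which signals through MyD88 to NF-κB. Interleukin 1 beta is made as an inactive precursor that caspase-1 cuts in the inflammasome, whereas the interleukin 1 alpha precursor is already active and serves as an alarm signal when cells are damaged. In the brain, microglia are the main source of both after LPS, which is sensed by TLR4. The transcripts measured here say nothing about precursor cutting or release.

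In the RefSeq annotation of the rat assembly GRCr8, the 2 genes are neighbours on chromosome 3 and lie on the minus strand, with 1 non-coding locus and 0 protein-coding genes annotated between them. Their promoters are shown because the genes are neighbours that were both higher after LPS. The 250 bases before each annotated start are printed 5′ to 3′ on the strand of the gene, at chr3:136990018-136990267 for Il1a and at chr3:137036582-137036831 for Il1b, with capitals for every match to the motifs searched.
Il1a: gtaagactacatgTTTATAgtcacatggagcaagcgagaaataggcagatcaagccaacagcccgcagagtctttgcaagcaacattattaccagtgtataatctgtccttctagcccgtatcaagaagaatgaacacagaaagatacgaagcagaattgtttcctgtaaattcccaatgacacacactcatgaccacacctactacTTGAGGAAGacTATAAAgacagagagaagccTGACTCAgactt
Il1b: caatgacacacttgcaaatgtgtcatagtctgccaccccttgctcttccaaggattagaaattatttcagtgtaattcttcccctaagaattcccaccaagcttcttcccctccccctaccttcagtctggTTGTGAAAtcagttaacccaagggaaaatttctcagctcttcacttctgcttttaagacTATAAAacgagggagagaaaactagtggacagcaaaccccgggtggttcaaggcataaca
Both strands were searched, and positions count back from the base before the start. The TATA box letters TATAAA were found from -32 to -27 in Il1a and from -60 to -55 in Il1b, and on the other strand from -237 to -232 in Il1a. 12.9% of the 33469 rat promoters of this length hold them. The C/EBP letters TTNNGNAA, which 37.2% of promoters hold, were found from -43 to -36 in Il1a and from -119 to -112 in Il1b. Only the Il1a window held the PU.1 letters AGGAAG (from -40 to -35, overlapping the C/EBP match) and the AP-1 letters TGANTCA (from -12 to -6). These are found in 29.5% and 6.34% of promoters. The NF-κB consensus, found in 6.33% of promoters, had no match in either window, which says only that these letters are not there. A match is a description of the sequence and was not tested for binding.

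The reads assigned to genes numbered 6624453 to 8548714 in a sample. Il1a had 38 to 821 reads in a sample and Il1b had 99 to 4281, so neither gene was near the limit of counting in any sample. Levels are given as CPM, counts scaled to the library size and by TMM, and CPM is not corrected for transcript length, so the level of one gene is not compared with that of the other. Because RNA was taken from bulk samples, fewer cells of a type and less RNA per cell cannot be told apart. The labelled cell type was not checked against marker genes, since no table used here pairs the other Ensembl identifiers with names.

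LPS raised Il1b in both oxygen groups, and every LPS sample lay above every vehicle sample. In Nx, the vehicle levels of Il1b were 68.8, 41.7 and 21.7 CPM in males and 15.2, 16.9 and 14.25 CPM in females. With LPS they were 352.4, 146.9 and 442 CPM in males and 351.5, 248 and 242 CPM in females. The lowest LPS sample was thus more than any vehicle sample, and 4.5% of the tested genes were separated in this direction in Nx. Averaged over the sexes, Il1b rose 11.4-fold in Nx (95% interval 6.07 to 21.3; log2 fold change 3.51 ± 0.44 SE, FDR = 1.6e-05 by the quasi-likelihood F test of edgeR). It ranked 59 of 12860 genes by fold change. An FDR below 0.05 was reached by 16.1% of genes in this comparison, 9.26% of all genes being higher.

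In IH, Il1b with vehicle was 96, 22 and 22.7 CPM in males and 22, 14.1 and 18.8 CPM in females. With LPS it was 552.8, 127 and 134 CPM in males and 227, 271 and 231 CPM in females. No LPS sample overlapped the vehicle samples, as for 2.61% of the tested genes, although 1 male sample in each condition, replicate 1 with vehicle and replicate 1 with LPS, lay far above the rest. The rise was 8.77-fold (95% interval 4.73 to 16.3; log2 fold change 3.13 ± 0.43 SE, FDR = 8.12e-05, edgeR), with a rank of 55. In IH, 7.16% of genes passed and 5.05% were higher.

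Il1a, by contrast, had 1 male LPS sample within the vehicle range in each oxygen group. In Nx, its vehicle levels were 7.38, 14 and 33.4 CPM in males and 25.6, 6.28 and 11.4 CPM in females. With LPS they were 83.7, 20.6 and 117 CPM in males and 80.3, 105 and 63.7 CPM in females. Of the 6 Nx LPS samples, 5 exceeded every Nx vehicle sample, and male replicate 2 did not. Il1a rose 4.82-fold in Nx (95% interval 2.485 to 9.36; log2 fold change 2.27 ± 0.46 SE, FDR = 0.0018, edgeR), with a rank of 158.

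In IH, Il1a with vehicle was 19.7, 8.69 and 24.6 CPM in males and 23.2, 5.41 and 7.28 CPM in females. With LPS it was 46.75, 40.3 and 19 CPM in males and 31.1, 40.1 and 45.9 CPM in females. Again 5 of the 6 LPS samples exceeded every vehicle sample, the exception being male replicate 3. The fold change was 2.56 (95% interval 1.33 to 4.92; log2 fold change 1.35 ± 0.45 SE), and its FDR of 0.0791 (edgeR) missed the threshold. Over the alternative settings this FDR ran from 0.0195 to 0.117, and with each sample left out in turn from 0.0284 to 0.188.

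**Figure D1:**
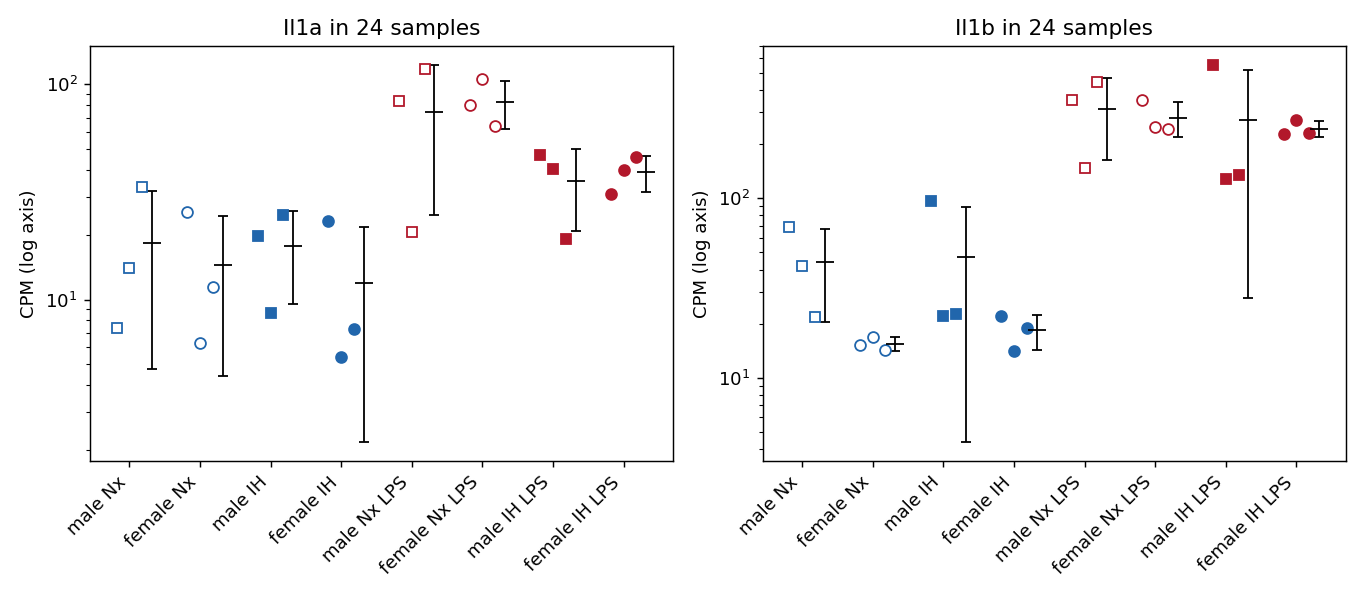
Levels of Il1a (left) and Il1b (right) in CPM on a log axis in the 24 samples, by group. Squares are males, circles are females, open symbols are Nx, filled symbols are IH, blue is vehicle and red is LPS; horizontal ticks and bars are the mean and SD of 3 samples. The Il1b LPS samples all lie above the vehicle samples, while the Il1a LPS samples at 20.6 CPM (male Nx LPS) and 19 CPM (male IH LPS) lie among the vehicle samples.

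The 2 LPS samples in which Il1a stayed within the vehicle range also had the lowest Cxcl10, a chemokine gene induced by interferons and LPS. Cxcl10 was 123.5 CPM in male Nx LPS replicate 2 and 23.1 CPM in male IH LPS replicate 3, against 440.4 to 3192 CPM in the other LPS samples. Il1b in these samples was 146.9 and 134 CPM, among the lowest 3 LPS values but above the vehicle range. Irf1, an interferon regulatory factor gene, was 159.5 and 201.8 CPM in these samples, against 127.3 to 173.8 CPM with vehicle and 273.3 to 1396 CPM in the other LPS samples. Birc3, an inhibitor of apoptosis, was 12.05 and 6.51 CPM, against 0.278 to 1.23 CPM with vehicle and 30 to 161 CPM in the other LPS samples. Whether the injection or the label of these libraries differed was not tested, and the male LPS values include them unless stated. Leaving both out, a choice made after their values were seen, the Il1a rise in IH was 1.504 on the log2 scale with FDR = 0.0195, and the Il1a rise in male Nx samples was 2.46 with FDR = 0.0111 (edgeR). These were also the 2 lowest Il1a values with LPS, so leaving them out had to raise the Il1a effect, and the calls gained are no evidence for it.

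Il1b had the larger log2 fold change of the pair in each sex as well. In Nx males, Il1b rose by 2.83 ± 0.59 SE on the log2 scale (FDR = 0.00931) and the Il1a value was 2.01 ± 0.64 (FDR = 0.0873, edgeR), where 4.07% of genes passed. In Nx females, Il1b rose by 4.18 ± 0.64 (FDR = 0.000614) and Il1a by 2.53 ± 0.66 (FDR = 0.025), where 6.43% passed. In IH males, Il1b rose by 2.54 ± 0.59 (FDR = 0.0428) and Il1a had a value of 1.00 ± 0.63 (FDR = 0.747), where 0.855% passed. In IH females, Il1b rose by 3.73 ± 0.62 (FDR = 0.00208) and the Il1a value was 1.71 ± 0.65 (FDR = 0.189), where 3.23% passed. With 1 sample left out, this Il1a value ran from 1.36 (without female IH replicate 2) to 2.61 (without female IH replicate 1), and it missed the threshold each time. The Il1b call in IH males was lost without male IH LPS replicate 1, the sample at 552.8 CPM (1.48), and also without either of the 2 low vehicle samples, male IH replicates 2 and 3. In Nx males it was lost without male Nx replicate 3 or male Nx LPS replicate 3. The Il1a call in Nx females was lost on leaving out any of 4 of the 6 samples compared (female Nx replicates 2 and 3, female Nx LPS replicates 1 and 2; highest FDR = 0.11).

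Female samples showed no overlap between LPS and vehicle for either gene, in Nx (13.1% of genes tested) or in IH (10.7%). The difference between the sexes in the LPS effect, averaged over oxygen, was 1.27 ± 0.57 SE for Il1b (female minus male, log2, 95% interval 0.09 to 2.45, FDR = 1) and 0.61 ± 0.63 for Il1a (-0.71 to 1.92, FDR = 1, edgeR). The Il1b value was 0.51 without the 2 male vehicle samples highest in Il1b (replicate 1 in Nx and in IH). With 1 sample left out, the Il1a value ran from 0.22 (without male Nx replicate 3) to 1.06 (without female IH replicate 1), and the Il1b value from 0.75 (without male IH replicate 1) to 1.80 (without male IH LPS replicate 1). Neither passed the threshold across all genes, where 0% did. edgeR called 0 genes, with 169 at an unadjusted p below 0.05, and DESeq2 and the likelihood ratio test also called 0.

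**Figure D2:**
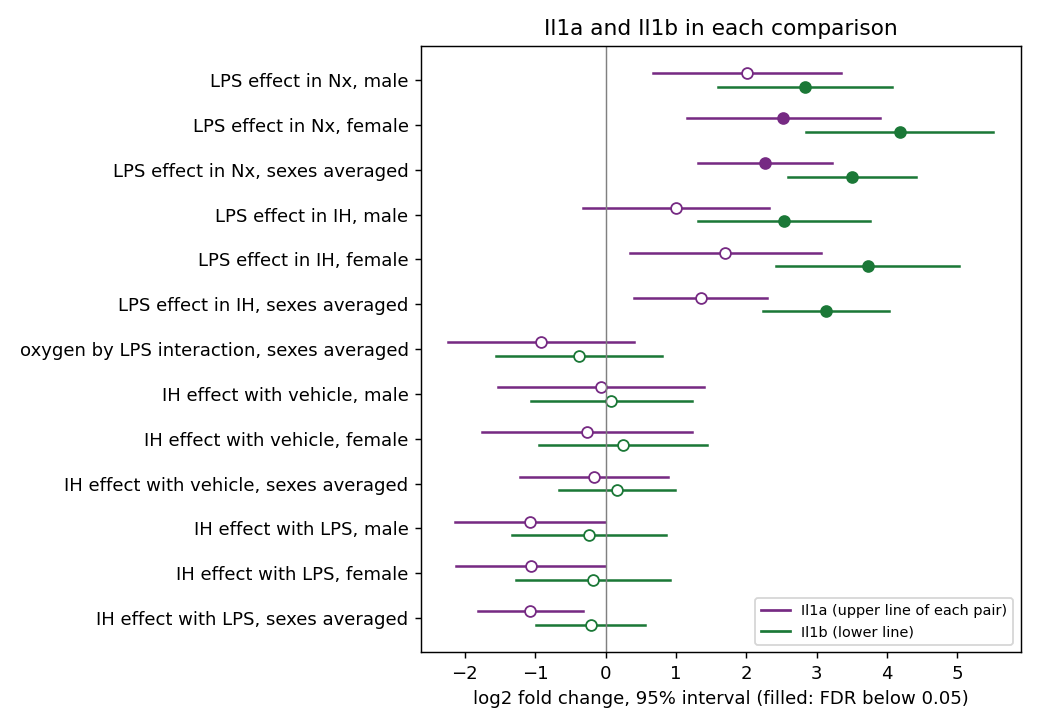
Log2 fold changes of Il1a (purple) and Il1b (green) in each comparison, with 95% intervals from edgeR; filled circles have an FDR below 0.05. The 6 Il1b circles for LPS against vehicle are all filled, and for Il1a those in Nx females and in Nx over both sexes are filled.

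With vehicle, neither gene passed the threshold for IH against Nx, and 0% of genes did. Over both sexes, Il1a with vehicle was 16.3 ± 10.8 CPM in Nx and 14.8 ± 8.65 CPM in IH (SD, n = 6), and Il1b was 29.75 ± 21.7 CPM in Nx and 32.6 ± 31.2 CPM in IH. The log2 difference, IH minus Nx, was -0.16 for Il1a (95% interval -1.21 to 0.89) and 0.17 for Il1b (-0.66 to 0.99), each with FDR = 1 by edgeR. edgeR called 0 genes, with 136 at an unadjusted p below 0.05, and DESeq2 and the likelihood ratio test also called 0 when the sexes were averaged. The Il1a interval includes a level 2-fold lower in IH, so a change of that size is not excluded. The 2 genes pointed in different directions, but both differences were less than the spread between samples.

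With LPS, the mean of each gene was lower in IH than in Nx, and neither difference passed the threshold. The Nx LPS mean of Il1a was 78.5 ± 34.1 CPM and its IH LPS mean 37.2 ± 10.5 CPM (SD, n = 6), while Il1b averaged 297 ± 105 CPM and 257 ± 156 CPM. In females, the 3 IH LPS samples of Il1a all lay below the 3 Nx LPS samples, as for 5.28% of genes tested. In males the ranges overlapped, because 1 Nx LPS sample was at 20.6 CPM. The log2 difference for Il1a was -1.07 ± 0.35 SE (95% interval -1.82 to -0.32), a level 2.1-fold lower in IH, with an unadjusted p of 0.00917 and FDR = 1 by edgeR. Its p ranked 21 of 12860. The study had already called Il1a lower in these female samples, so neither this rank nor the separation in females is independent evidence. For Il1b the difference was -0.21 ± 0.36 (-0.98 to 0.57, FDR = 1), and 1 library set much of it. It was -0.72 without male IH LPS replicate 1, the sample at 552.8 CPM (FDR = 0.97, edgeR), and -0.04 without male IH LPS replicate 2.

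No gene passed the threshold for IH with LPS, so the percent called was 0%. edgeR called 0 genes, with 223 at an unadjusted p below 0.05, and DESeq2 and the likelihood ratio test also called 0 when the sexes were averaged. The Il1a value was close to the same in both sexes, -1.07 in males (95% interval -2.14 to -0.01) and -1.06 in females (-2.12 to -0.0017), each with FDR = 1, and the sex difference was 0.01 (95% interval -1.47 to 1.49). This differs from the study, which called Il1a lower by edgeR (FDR below 0.05) in these female samples and not in the males. Its quantitative PCR also found Il1a lower in females with IH and LPS, and not in males. The study does not state its edgeR model, and the source of the difference was not tested. The male value ran from -1.52 without male Nx LPS replicate 2 to -0.58 without male Nx LPS replicate 3. Without the 2 LPS samples low in Cxcl10, the Il1a difference over both sexes was -1.14 ± 0.17 SE and its FDR was 0.233. These were the lowest Il1a values of Nx LPS and of IH LPS, so leaving them out narrowed the spread. The smaller SE and FDR are therefore no evidence for a difference. Left out 1 at a time, samples moved it between -1.29 and -0.82, and it kept its sign each time.

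The interaction asks whether the LPS effect itself differed between IH and Nx. It was -0.92 ± 0.63 SE for Il1a (95% interval -2.23 to 0.40) and -0.37 ± 0.57 for Il1b (-1.55 to 0.80), each with FDR = 1, and 0% of genes passed. edgeR called 0 genes, with 182 at an unadjusted p below 0.05, and DESeq2 and the likelihood ratio test called 0. The pass of Il1a in Nx and its miss in IH are therefore not shown to differ. With each sample left out in turn, the Il1a interaction ran from -1.31 (without male Nx replicate 3) to -0.46 (without female IH replicate 1). The sign of the Il1b interaction turned without male IH replicate 1 (0.17).

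Ordered by mean, Il1a ran from female IH (12 CPM) through female Nx (14.4), male IH (17.7) and male Nx (18.3) to male IH LPS (35.4), female IH LPS (39), male Nx LPS (73.9) and female Nx LPS (83.1 CPM). Each of these groups overlapped its neighbours in the order. For Il1b the order was female Nx (15.4 CPM), female IH (18.3), male Nx (44.1), male IH (46.9), female IH LPS (243), male IH LPS (271), female Nx LPS (280.4) and male Nx LPS (313.8 CPM). There, only the step from male IH to female IH LPS separated neighbours without overlap.

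Il1b in vehicle samples was also compared between the sexes, after the values had been seen. Of the 6 male vehicle samples, 4 lay above all 6 females, with male means of 44.1 ± 23.6 CPM in Nx and 46.9 ± 42.5 CPM in IH (SD, n = 3) and female means of 15.4 ± 1.34 and 18.3 ± 3.97 CPM. The log2 difference, male minus female, was 1.44 ± 0.39 SE (FDR = 0.377 by edgeR, FDR = 0.0396 by DESeq2), where 0.07% of genes passed in edgeR (9 of 12860) and 32 of 12860 in DESeq2. It was 0.67 without male Nx replicate 1 (68.8 CPM) and male IH replicate 1 (96 CPM). With LPS the Il1b difference was 0.16 (FDR = 0.895), and the Il1a difference was 0.46 with vehicle (FDR = 0.624) and -0.15 with LPS (FDR = 0.895), where 0.0467% of genes passed with LPS in edgeR. The Il1a difference with vehicle ran from 0.07 without male Nx replicate 3 to 0.93 without female IH replicate 1.

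The spread between samples of one group was wide for both genes. The biological coefficient of variation of Il1a was 0.565 in vehicle and 0.411 in LPS samples, and that of Il1b was 0.446 and 0.428. The medians over all tested genes were 0.211 and 0.242. Il1a in vehicle samples was above 97.3% of genes in this measure, and the lowest percentile of the 4 values was 86.9.

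The ratio of Il1b to Il1a counts, taken within a sample, does not depend on library scaling. Transcript length adds the same unknown factor to it in every sample, so only its changes were read. With vehicle it ran from 0.592 to 9.32, and with LPS from 2.36 to 11.8. LPS raised the ratio 3.12-fold in IH (log2 difference 1.64, p = 0.00433, adjusted p = 0.0173, exact two-sided permutation test over 924 labellings, 4 comparisons). In Nx the ratio differed 2.24-fold between LPS and vehicle (log2 1.16, p = 0.113, adjusted p = 0.15, exact permutation test). IH against Nx gave a log2 difference of 0.65 with LPS (p = 0.0931, adjusted p = 0.15) and 0.17 with vehicle (p = 0.81, adjusted p = 0.81), by the same exact permutation test. With any IH LPS sample but male replicate 2 left out, the adjusted p of the ratio in IH was above 0.05 (at most 0.052). The ratio in Nx passed without male Nx replicate 1 (1.63, adjusted p = 0.0173), and IH against Nx with LPS passed without male IH LPS replicate 2 (0.85, adjusted p = 0.039), each by the exact permutation test.

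**Figure D3:**
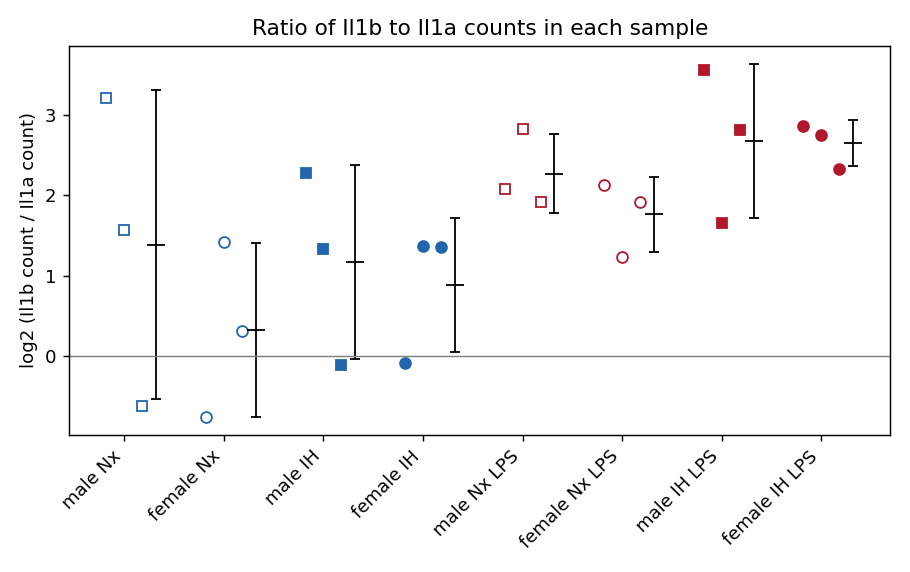
Log2 ratio of Il1b to Il1a counts in each of the 24 samples by group, with the mean and SD of 3 samples as ticks and bars; symbols and colours are those of the plot of levels by group. The vehicle samples spread from below 0 to above 3, and all LPS samples lie above 1.

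The 2 genes were also compared sample by sample with vehicle and with LPS, and no difference between these correlations was tested. Over the 12 LPS samples, log2 CPM correlated with Pearson's r = 0.667 (permutation p = 0.0183, adjusted p = 0.102 over 7 relations) and Spearman's rho = 0.713 (p = 0.0119, adjusted p = 0.083, permutation test). Without the 2 samples farthest from the median of Il1a (male Nx LPS replicate 3 and male IH LPS replicate 3), r was 0.485 over 10 samples. Without the 2 samples low in Cxcl10 it was 0.43 over 10 samples (permutation p = 0.218), and without male IH LPS replicate 1 it was 0.812, so the size of the relation depended on which samples entered.

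Over the 12 vehicle samples r was 0.111 and rho 0.287 (permutation p = 0.727 and 0.366, adjusted p = 0.727 and 0.513). In the 6 Nx LPS samples r was 0.861 and rho 0.829 (exact permutation p = 0.0292 and 0.0583, adjusted p = 0.102 and 0.136), and r was 0.055 without the 2 farthest samples. In the 6 IH LPS samples r was 0.576 and rho 0.543 (exact permutation p = 0.242 and 0.297, adjusted p = 0.513 for each), with r = 0.666 without the 2 farthest. With vehicle, r was -0.306 and rho -0.086 in the 6 Nx samples (exact permutation p = 0.553 and 0.919, adjusted p = 0.645 and 0.919), and r was 0.515 and rho 0.829 in the 6 IH samples (exact permutation p = 0.293 and 0.0583, adjusted p = 0.513 and 0.136). Deviations from the group means over 24 samples had r = 0.238 and rho = 0.192 (permutation p = 0.372 and 0.48, adjusted p = 0.52 and 0.56). Split by sex, with 4 relations added after the data were seen, r was 0.748 in male and 0.429 in female LPS samples, and -0.302 in male and 0.31 in female vehicle samples (exact permutation p = 0.133, 0.433, 0.517 and 0.54, adjusted p = 0.533 for male LPS and 0.54 for the others).

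**Figure D4:**
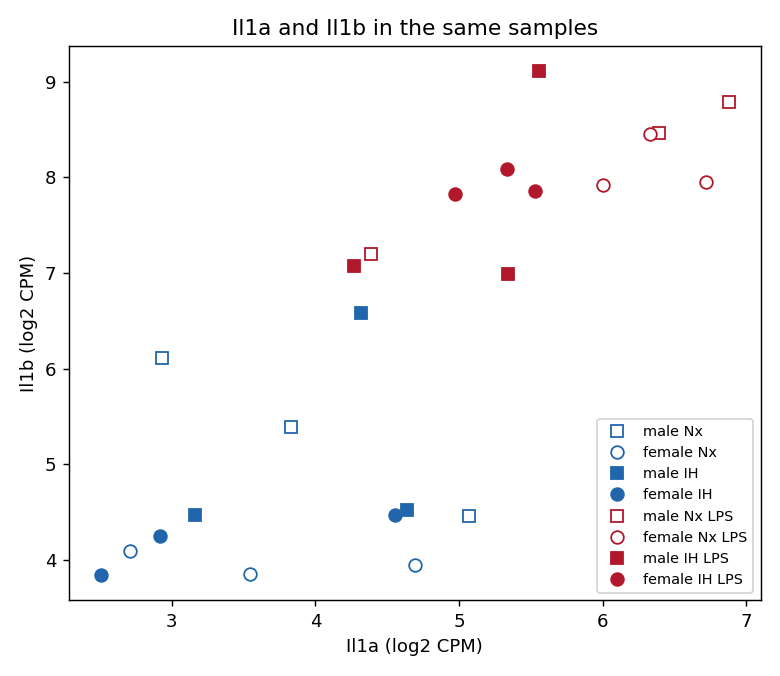
Il1b against Il1a in log2 CPM in the 24 samples, with the symbols of each group in the legend. LPS samples (red) occupy the upper right, with r = 0.667 among them, and vehicle samples (blue) the lower left, with r = 0.111.

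Over all 24 samples, where the LPS effect is shared by many genes, the Pearson correlation of log2 CPM between Il1a and Il1b was 0.776. As a description, Il1b ranked 262 among 12859 genes in likeness to Il1a, and Il1a ranked 504 in likeness to Il1b. The genes nearest to each were ENSRNOG00000008736 for Il1a (0.887) and ENSRNOG00000007390 for Il1b (0.966). Among the genes that could be named, Il1a was nearest to Icam1, which encodes an adhesion molecule for leukocytes (0.856), then to Cxcl10 (0.853) and Birc3 (0.847). Il1b was nearest to Birc3 (0.912), Icam1 (0.91) and Cxcl10 (0.903). On deviations from the group means, which take out the LPS effect, r between the pair was 0.238. There Il1b ranked 3913 in likeness to Il1a, and Il1a ranked 2687 in likeness to Il1b. The nearest named gene was then the cytokine gene Il6 for Il1a (0.666) and Icam1 for Il1b (0.563).

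These names come from 11 other NF-κB targets that the study paired with identifiers. It listed them, with Il1a and without Il1b, as lower in females with IH and LPS among these same samples, so the list is no independent evidence of direction. Of the 11, 5 (Csf3, Cxcl1, Cxcl9, Ptgs2 and Sele) met the filter on low counts only through LPS samples and so had to be higher with LPS, and no count or median over the list is given for that effect. Among the 6 that met it with vehicle alone, Il6, a cytokine gene, rose by 2.57 ± 0.33 SE in Nx and 1.02 ± 0.31 in IH (FDR = 2.19e-05 and 0.0486, edgeR). Il6 was near the floor, at 0.279 to 2.41 CPM with vehicle and at most 8.15 CPM with LPS. With vehicle it was 0.95 higher in IH on the log2 scale (unadjusted p = 0.0147, edgeR), which missed the FDR threshold and enters the smaller rise in IH. Cd83, a surface marker of activated myeloid cells, rose by 1.73 ± 0.23 and 1.11 ± 0.23 (FDR = 3.5e-05 and 0.00421). Cxcl10 rose by 8.42 ± 0.87 and 6.51 ± 0.80 (FDR = 2.62e-06 and 2.79e-05). Icam1 rose by 3.24 ± 0.36 and 2.58 ± 0.35, and Irf1 by 2.75 ± 0.41 and 1.77 ± 0.39. Birc3 rose by 7.03 ± 0.68 and 6.09 ± 0.68, and each of these passed the threshold (edgeR).

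For IH with LPS, the log2 values of the 11 ran from -1.99 to -0.63 in females, the contrast on which the list was chosen, and nothing is read from that direction. In males, which did not choose it, they ran from -1.42 to 0.47, where the median of all tested genes was -0.0018. The 11 were measured in the same samples and are not independent readings. Each male LPS group also holds a sample low in Cxcl10, so no direction is read from the males either. By edgeR, 0 of the 11 passed in either sex, and 0% of all genes did. edgeR had 164 genes in males and 183 in females at an unadjusted p below 0.05, DESeq2 called 0 genes in each sex, and the likelihood ratio test called 0 in males and 1 in females.

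**Figure D5:**
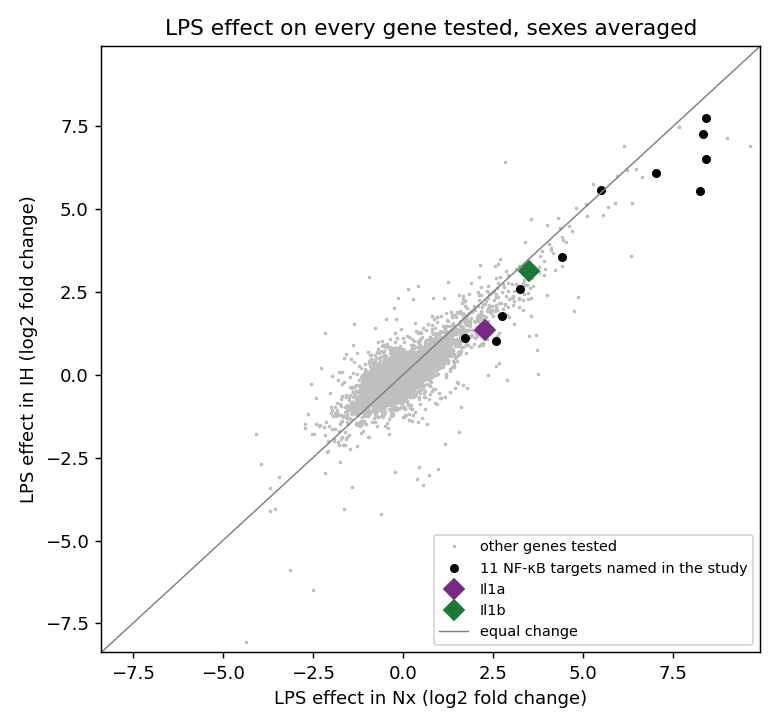
LPS effect in IH against LPS effect in Nx as log2 fold changes averaged over the sexes, for 12860 tested genes; the diagonal marks equal change. Il1b lies at 3.51 and 3.13, Il1a at 2.27 and 1.35, and the black points are the 11 other NF-κB targets.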

How the data were processed

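Stranded mRNA libraries were sequenced by the authors from 24 samples. The authors aligned the reads with TopHat2 2.1 to rn6 and counted them per Ensembl gene with HTSeq, per the submitters' processing notes and the study's methods, and deposited the raw counts, with no normalization or filter. The annotation release is not given in the sources used here. Rows that name no gene (14.7% to 21.2% of reads without a feature, 0.265% to 0.435% ambiguous and 11.7% to 23.4% not unique) were left out.

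The tests were those of edgeR 4.0.16 in R 4.3.3, with DESeq2 1.42.0 as an alternative. The 12860 genes with CPM above 1 in at least 3 of 24 samples were kept and scaled by TMM. LPS effects, the interaction and the sex difference in the LPS effect were fitted to all 24 samples with 8 group means, and IH and sex effects to the 12 vehicle or 12 LPS samples with 4, by the quasi-likelihood F test with Benjamini-Hochberg adjustment over all tested genes (FDR threshold 0.05). CPM was scaled over all 24 samples, and log2 CPM used a prior count of 2. Ratios, from counts plus 0.5, and correlations were computed in Python 3.11.15 with scipy 1.17.1, with exact permutation tests for 6 samples a group and 100000 resamples for more. The tests were tried on simulated data.

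The members, gene lists and rules were chosen with earlier results of these data known. Genes named are the members and, where an identifier is paired with a name in the study's text, its NF-κB targets, with the nearest gene by identifier. The chosen lists of interleukin 1 pathway genes and cell type markers could not be matched to the Ensembl identifiers and were not analysed here. Promoters are from RefSeq, GRCr8; both members matched. The replicate samples are called biological by the study, and no pair within a group was the same library (chi-square per degree of freedom 7.81 or more). Samples of different groups were not compared in this way. The labels give no batch. Alternatives were another size factor, no filter, a likelihood ratio test, DESeq2, a replicate block, other sample sets, and each sample left out; leaving out 2 LPS samples low in Cxcl10 or 2 vehicle samples high in Il1b, the sex effects and the correlations by sex were added after the values were seen. The choice of Cxcl10 was made on the measured values.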

Additional observations from a re-analysis of the deposited data

Results flagged for a closer look

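Within each of the 4 conditions (6 samples, both sexes), the highest and lowest samples were compared with the rest for Il1a, Il1b and their ratio, 12 sets in all, of which 2 held a sample far from the others by Dixon's criterion. Chance alone singles out about 5% of such sets.

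Il1b had a log2 CPM of 6.588 in male IH replicate 1 (96 CPM), where the other 5 IH vehicle samples ran from 14.1 to 22.7 CPM. Its gap to the nearest sample was 0.753 of the range. Icam1 was 141.6 CPM in this sample and 145.7 CPM in male Nx replicate 1, the vehicle sample with the next highest Il1b, and 96.1 to 126.6 CPM in the other vehicle samples. Cxcl10 in both (7.61 and 5.42 CPM) was within the 3.99 to 14.1 CPM of the other vehicle samples. The part of these differences in the Il1b result was not tested.

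Il1a had a log2 CPM of 4.385 in male Nx LPS replicate 2 (20.6 CPM), where the other 5 Nx LPS samples ran from 63.7 to 117 CPM, with a gap of 0.647 of the range. Icam1 in this sample was 229 CPM, against 1075 to 1559 CPM in the other Nx LPS samples, and Cxcl10 was 123.5 CPM, against 1822 to 3192 CPM. Male IH LPS replicate 3, low in the same genes (Icam1 228.3 CPM, Cxcl10 23.1 CPM, Il1a 19 CPM), did not pass the criterion for Il1a among the IH LPS samples (0.545).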

How the results depend on the processing

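Outside the fits that leave out 1 sample, 251 of 270 alternative values kept the direction and the side of the threshold, over 45 results. For the correlations, the side was judged on the unadjusted permutation p. Many of the results were far from the threshold in every setting, so this count does not measure how stable the called results were. The rises with LPS of Il1b over both sexes in Nx and in IH, and of Il1a over both sexes in Nx, kept theirs in every setting tried, each sample left out included. Where the alternative is not itself a smaller set of samples, the cause of the changes below was not tested. All effects are log2 values. For Il1b in female Nx samples, the CV between samples was 8.65% and that of counting alone 9.35%, so depth limits that group's spread.

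The Il1a rise passed with the likelihood ratio test in Nx males (2.016) and in IH over both sexes (1.352), and in IH also when fitted to the 12 IH samples alone (1.353). In those fits to 1 oxygen group, Il1a in Nx females (2.543) and Il1b in IH males (2.536) missed. DESeq2 called the Il1b sex difference with vehicle (1.438). The Il1a sex difference in the IH effect with LPS was -0.026 when fitted to all 24 samples.

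Over 84 pairs of samples with the same number in the labels, the mean correlation of deviations was 0.0503 and 37 were above 0.1, against a mean of -0.0253 and 47 of 168 for pairs with different numbers. The main fits did not pair the samples by number. Samples could be paired without every pair being above 0.1, so these values do not decide whether the numbers pair them. With the replicate block, the Il1a rise in IH over both sexes passed (1.482), Il1b for IH with vehicle in males was -0.062, the Il1a sex difference in the IH effect was -0.035 and the correlation over vehicle samples was -0.013. The block raised the count of genes called for sex with LPS from 6 to 27.

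Without the 2 LPS samples low in Cxcl10, the Il1a rise passed in Nx males (2.457) and in IH over both sexes (1.504), the Il1a sex difference with LPS was 0.223, the ratio in IH missed (1.609) and the correlation over LPS samples had an unadjusted permutation p above 0.05 (r = 0.43). Without the 2 vehicle samples high in Il1b, IH with vehicle was -0.532 for Il1b in males and -0.141 over both sexes, and the ratio in Nx passed (1.631).

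With each sample left out in turn, the LPS effect ran from 1.511 to 2.795 for Il1a and from 2.502 to 3.311 for Il1b in Nx males, from 2.17 to 3.222 for Il1a in Nx females, from 1.481 to 3.603 for Il1b in IH males and from 1.18 to 1.807 for Il1a in IH over both sexes, which passed without male IH LPS replicate 3 or female IH replicate 1. Il1a in Nx males passed without male Nx LPS replicate 2. The Il1b interaction ran from -0.902 to 0.169. IH with vehicle ran from -0.439 to 0.707 (Il1a) and -0.999 to 0.55 (Il1b) in males, from -1.165 to 0.428 (Il1a) in females, and from -0.615 to 0.222 (Il1a) and -0.374 to 0.4 (Il1b) over both. IH with LPS ran from -1.258 to 0.097 for Il1b in males and from -0.271 to 0.02 in females, and its sex difference from -0.482 to 0.455 (Il1a) and -0.277 to 1.078 (Il1b). The sex effect with LPS ran from -0.396 to 0.072 (Il1a) and -0.355 to 0.327 (Il1b). The ratio ran from 0.838 to 1.631 for LPS in Nx, from 1.411 to 1.89 for LPS in IH, from -0.154 to 0.638 for IH with vehicle and from 0.467 to 0.849 for IH with LPS. The correlation ran from -0.037 to 0.309 in vehicle and from 0.577 to 0.812 in LPS samples, where the unadjusted p was above 0.05 without male Nx LPS replicate 3 or male IH LPS replicate 3.

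Counts of genes called moved as well. For LPS in Nx males, 523 became 812 with DESeq2, 317 in the fit to Nx samples, 1366 without the samples low in Cxcl10 and 153 without those high in Il1b. For LPS in IH males, 110 became 250, 62, 583 and 30 in the same order, and 238 with the likelihood ratio test. For LPS in IH females, 416 became 678 with DESeq2. With each sample left out in turn, the count ran from 153 (without female IH replicate 2) to 473 in IH females, from 335 (without female Nx LPS replicate 3) to 786 in Nx females (827 with all), from 161 to 1028 in Nx males, from 26 to 353 in IH males, from 602 to 1375 in IH over both sexes and from 1437 to 2552 in Nx over both sexes (2070 with all). For LPS in IH over both sexes, 921 became 1602 without the samples low in Cxcl10 and 604 without those high in Il1b. Counts of 0 became 2 and 4 for IH with vehicle in males (likelihood ratio test, DESeq2) and 1 for IH with LPS in females (likelihood ratio test). For sex, 9 became 33 and 32 with vehicle, and 6 became 85 and 73 with LPS, by the same 2 tests. Leaving out 1 sample also moved counts off 0 in edgeR. Without male Nx replicate 2, 2 genes were called for IH with vehicle in males and 2 over both sexes. Without male Nx LPS replicate 2, 1 was called for IH with LPS in males.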

Other observations

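The sample numbered 1 held the highest Il1b value in 5 of the 8 groups (male Nx, male IH, female IH, female Nx LPS and male IH LPS). For Il1a the sample numbered 1 was highest in 3 of the 8 groups and that numbered 3 in 4. These counts were made after the values were seen, and no test was run on them.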
